A study of Mus musculus with 24 samples.

Results

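The question addressed here was whether the combined loss of PU.1 and SpiB changed gene expression by more or less than the sum of the single losses in B cells activated with LPS and IL-4. It rests on 8 of the 24 RNA-seq libraries of the series, those of lymph node B cells that had spent 48 h in LPS + IL-4 by their titles and cell type labels, and covers 4 genotypes with 2 biological replicates each. The extraction text attached to these libraries names the CD40L + IL-4 culture instead, and the titles were followed. The labels give the strain of all mice as C57BL/6, which the level of H2-Ea-ps in both PU.1 cKO libraries, given with the chromosome 17 genes, goes against. Control mice were Cd23T/+, carrying the Cd23-Cre transgene alone. PU.1 cKO mice were Spi1fl/fl Cd23T/+, so that Spi1, which encodes PU.1, was deleted from the transitional B cell stage on, when the Cd23 promoter becomes active. SpiB KO mice were Spi1fl/fl Cd23+/+ Spib-/-, with a germline deletion of Spib and no Cre, and PU.1 SpiB DKO (DKO) mice were Spi1fl/fl Cd23T/+ Spib-/-. The cells were sorted as CD3- B220+ CD138-, a gate without plasma cells that carry CD138. The control lacked the floxed Spi1 alleles that the other genotypes carried, and SpiB KO lacked the Cre transgene that the other genotypes carried. An effect of the Cre transgene or of the floxed chromosome on a departure cannot be told apart from an effect of losing both factors.

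PU.1 and SpiB are ETS family transcription factors that bind nearly the same purine-rich DNA sequence around a GGAA core. They also bind composite elements together with the interferon regulatory factors IRF4 and IRF8. PU.1 is made throughout the myeloid and early lymphoid lineages, while SpiB is made in B cells and plasmacytoid dendritic cells, so that mature B cells contain both. When partners can stand in for each other, loss of either alone may leave a target near its normal level. LPS acts on B cells through TLR4 and, together with IL-4, drives proliferation, switching to IgG1 and IgE, and the formation of antibody-secreting cells.

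The libraries held 22757630 to 73658850 counts each, and replicates of a genotype correlated with r of 0.9885 to 0.9911 across genes on the log2 scale. Rn45s, a ribosomal RNA precursor gene, took 0.49% to 3.26% of the counts and was highest in PU.1 cKO replicate 2. Spib was at 276 and 211 CPM (counts scaled to the library total, with TMM normalisation) in control and at 229 and 178 CPM in PU.1 cKO. It was at 18.1 and 14.3 CPM in SpiB KO and at 15 and 11.9 CPM in DKO, so every library matched its label for Spib. Spi1 was at 72.0 and 60.7 CPM for control, 44.2 and 41.2 for PU.1 cKO, 74.9 and 81.4 in the SpiB KO libraries, and 63.9 and 58.9 for DKO. Whole-gene counts are a weak check of this deletion, which removes only part of Spi1. From read coverage of the floxed exon, the paper reports a high deletion efficiency in its LPS + IL-4 cultures. Mybpc3, a cardiac myosin-binding protein gene next to Spi1 on chromosome 2, was high in both genotypes that carry floxed Spi1 and Cre, with 0.173 and 0.198 CPM for control, 323 and 291 for PU.1 cKO, 0.902 and 0.799 in the SpiB KO libraries, and 347 and 297 for DKO. Of the B cell markers, Cd79a, a signalling chain of the B cell receptor, was at 455 to 856 CPM in the 8 libraries, while Cd3e, Lyz2 and Csf1r were below 0.09 CPM in each. Of 20 T cell markers 11, and of 20 macrophage markers 15, were under 1 CPM in every library. Others were higher, such as Thy1 at 30.9 to 127 CPM and Mpeg1 at 8.09 to 65.2 CPM, and these lists are described further on.

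For each gene the departure was the log2 effect of DKO minus the log2 effects of PU.1 cKO and of SpiB KO, all against the same 2 control libraries, tested with edgeR's quasi-likelihood test. A gene was called at a Benjamini-Hochberg adjusted p under 0.15 with a departure of more than 1.5-fold. Of 12445 genes tested, 172 were called (1.38%), 80 above the sum (0.643%) and 92 below it (0.739%). The median departure of all genes was 0.00 on the log2 scale. Against control, 1310 genes were called in PU.1 cKO (10.5%), 831 of them higher (6.68%) and 479 lower (3.85%). SpiB KO had 397 (3.19%), 280 higher (2.25%) and 117 lower (0.94%). DKO had 2513 (20.2%), 1702 higher (13.7%) and 811 lower (6.52%), and 99 of these 2513 genes (3.94%) had a departure.

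**Figure D1:**
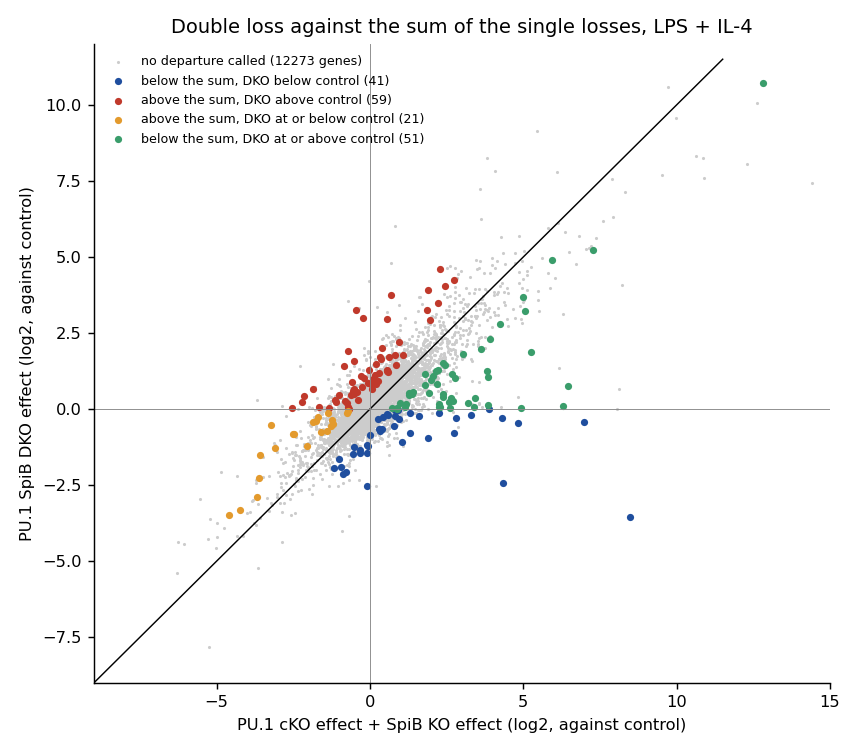
Effect of DKO against the sum of the PU.1 cKO and SpiB KO effects, both in log2 against control, for each of 12445 genes. The diagonal is the sum, grey points are the 12273 genes with no departure called, and the 172 coloured points are called genes, of which 92 lie below the diagonal and 80 above it.

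The called genes fell into 4 patterns. In 41 genes the DKO was below control and lower than the sum, and in 59 it was above control and higher than the sum. In 21 genes the DKO was at or below control but higher than the summed fall, and in 51 it was at or above control but lower than the summed rise. By their calls against control, 39 of the 172 were called in DKO alone (of 1390 genes with that pattern, 2.81%), and 49 in PU.1 cKO alone (of 297, 16.5%). Another 31 were called in all 3 mutants (of 226, 13.7%), and 16 in none (of 9590, 0.167%). Patterns and departures are computed from the same libraries, so these shares are a description.

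The 2 replicate numbers moved together, and a fit with the replicate number as a block called 541 genes (4.35%), 309 above and 232 below the sum, including 171 of the 172. All 172 departures had the same sign when computed from replicate 1 and from replicate 2 alone. The genes were called from these same libraries, so this agreement is a description and no measure of reproducibility. With 2 libraries a genotype, individual calls were fragile. Leaving out 1 library left between 54 genes (without PU.1 cKO replicate 2) and 520 genes (without control replicate 2), and 42 of the 172 were called in each of the 8 fits. Genes named below without a statement on these fits need not be among those 42. At an adjusted p under 0.05, 58 genes were called. For a single gene, an exact permutation test of 2 libraries against 2 could not go below p = 0.333. The replicates were separate biological samples, and in bulk samples fewer cells of a type cannot be told apart from less RNA per cell. Among the genes nearest the threshold, Soga1 (adjusted p = 0.148) was just inside it and Il6 (adjusted p = 0.152, departure -1.20) just outside.

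A first group of genes was called in neither single mutant and fell when both factors were lost. There were 14 genes below control and called in DKO alone. Tnf, the inflammatory cytokine, was at 34.4 and 33.1 CPM for control, 28.6 and 27.3 for PU.1 cKO, 30.6 and 24.3 in the SpiB KO libraries, and 12.2 and 11.8 for DKO. The DKO was far below the 3 other genotypes, with a departure of -0.94 ± 0.17 (log2, SE; adjusted p = 0.057). Its neighbour Lta, which encodes lymphotoxin alpha, was at 22.1 and 28.8 CPM for control, 24.7 and 23.0 for PU.1 cKO, 27.2 and 24.2 in the SpiB KO libraries, and 11.1 and 11.3 for DKO. The 6 libraries of the other genotypes overlapped and the DKO stood below them, with a departure of -1.11 ± 0.19 (adjusted p = 0.0495). The call of Tnf was kept in 5 of 8 fits without a library, and that of Lta in 6 of 8. Both genes lie in the stretch of chromosome 17 described further on, in which PU.1 cKO differed from the other genotypes at many genes.

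The same shape was seen in genes elsewhere, chosen here after their values were seen. Cyb561a3, a cytochrome b561 family ferrireductase, was at 182 and 161 CPM for control, 134 and 123 for PU.1 cKO, 174 and 192 in the SpiB KO libraries, and 60.8 and 74.9 for DKO. Rnf144a, an E3 ubiquitin ligase, was at 27.7 and 23.8 CPM for control, 21.3 and 19.5 for PU.1 cKO, 28.4 and 33.1 in the SpiB KO libraries, and 11.3 and 11.0 for DKO. In both genes the DKO libraries lay below all others, the departures were -1.02 ± 0.16 and -1.13 ± 0.17 (adjusted p = 0.0323 and 0.0231), and the calls were kept in all 8 fits without a library. Gucy2c (departure -1.13), a guanylate cyclase receptor, and the stress-induced factor Atf3 (-1.29) followed the same pattern. Their calls were lost in most fits without a library and did not pass at an adjusted p under 0.05. Gbp3, an interferon-inducible GTPase, fell in PU.1 cKO and was at 54.5 and 52.9 CPM in DKO against 172 and 161 in control, with a departure of -0.63 ± 0.13 (adjusted p = 0.0898). Fcer2a, the gene of CD23 and of the promoter that drives the Cre, was at 791 and 719 CPM for control, 620 and 496 for PU.1 cKO, 472 and 431 in the SpiB KO libraries, and 215 and 182 for DKO. It fell in SpiB KO and in DKO, and its departure of -0.75 ± 0.18 (adjusted p = 0.136) kept its call in 2 of 8 fits without a library.

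In a second group, loss of SpiB alone raised a gene that the double loss lowered or did not raise. Ccr6, the receptor of the chemokine CCL20, was at 18.2 and 13.3 CPM for control, 13.4 and 12.5 for PU.1 cKO, 36.0 and 42.4 in the SpiB KO libraries, and 7.22 and 7.64 for DKO. The SpiB KO libraries were above all others and the DKO libraries below all others, and the departure was -2.13 ± 0.22 (adjusted p = 0.0041). Ptgs1, which encodes cyclooxygenase 1, was at 3.33 and 2.43 CPM for control, 3.98 and 4.19 for PU.1 cKO, 6.69 and 7.99 in the SpiB KO libraries, and 1.47 and 1.46 for DKO. The order of its genotypes at both ends was that of Ccr6, with a departure of -2.84 ± 0.30 (adjusted p = 0.0041). Hs3st1, a heparan sulfate sulfotransferase, rose in both single mutants and was at 6.33 and 6.14 CPM in DKO against 6.18 and 8.35 in control (departure -1.82). Bhlhe40, a basic helix-loop-helix repressor, was at 71.9 and 71.4 CPM in SpiB KO, while the 6 libraries of the other genotypes lay at 37.5 to 48.9 CPM (departure -1.03 ± 0.12, adjusted p = 0.0067). These 4 genes kept their call in every fit that left out a library.

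Genes that rose beyond the sum formed the largest group, with 59 members, 25 of them called in DKO alone. Among those chosen after their values were seen, Insm1, a zinc finger factor known from neuroendocrine cells, was at 27.4 and 20.7 CPM for control, 36.0 and 33.0 for PU.1 cKO, 20.9 and 22.5 in the SpiB KO libraries, and 107 and 86.0 for DKO (departure 1.63 ± 0.21, adjusted p = 0.0112). Lgals1, the gene of galectin 1, was at 24.3 and 27.9 CPM for control, 36.0 and 34.1 for PU.1 cKO, 21.8 and 22.8 in the SpiB KO libraries, and 68.2 and 77.1 for DKO (departure 1.28 ± 0.15, adjusted p = 0.0067). In both genes the DKO lay above the range of the other 6 libraries, PU.1 cKO was a little above control, and SpiB KO was not above the control range. Trpv2, a cation channel gene, was at 82.8 and 67.0 CPM for control, 109 and 105 for PU.1 cKO, 89.6 and 93.8 in the SpiB KO libraries, and 252 and 259 for DKO (departure 0.96 ± 0.14, adjusted p = 0.0225). Mxd3, whose product pairs with MAX as MYC does, was at 7.89 to 9.17 CPM in the 6 other libraries and at 17.5 and 18.4 CPM in DKO (departure 1.22 ± 0.18). These 4 genes kept their call in every fit without a library. The related Mxd1 (departure 1.38), the zinc transporter gene Slc39a8 (0.90) and the cell cycle factor gene E2f2 (0.73) were also called above the sum. Each of these calls was lost in some fits without a library, and Mxd1 and E2f2 did not pass at an adjusted p under 0.05.

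Some of the genes that rose beyond the sum belong to the antibody-secreting programme. Derl3, a component of endoplasmic reticulum-associated degradation, was at 8.99 and 10.2 CPM for control, 15.5 and 14.7 for PU.1 cKO, 7.47 and 7.99 in the SpiB KO libraries, and 33.2 and 30.0 for DKO. PU.1 cKO and DKO were both above control, DKO by more, and the departure was 1.38 ± 0.17 (adjusted p = 0.0083). Cd28, a costimulatory receptor that plasma cells also use, was at 1.95 and 0.846 CPM for control, 5.03 and 3.66 for PU.1 cKO, 1.89 and 1.6 in the SpiB KO libraries, and 31.9 and 30.0 for DKO (departure 2.34 ± 0.44, adjusted p = 0.0631). Cd93, a receptor linked to plasma cell persistence, was called above the sum without a call in any mutant against control (departure 1.36 ± 0.32, adjusted p = 0.134). These were 3 of the 19 plasma cell programme genes tested, where 1.38% of all genes were called, and none was below the sum. Without a library, Derl3 kept its call in 8 of 8 fits, Cd28 in 4 and Cd93 in 1. The median departure of the 19 was 0.32, while 14 of them were higher in DKO and 10 in PU.1 cKO, against 13.7% and 6.68% of all genes.

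No departure was called for the regulators at the head of that programme. Prdm1, which encodes Blimp-1, rose in PU.1 cKO (1.17) and in DKO (1.58) with a departure of 0.21, and Xbp1 rose in the same genotypes (0.97 and 1.56) with a departure of 0.36 (adjusted p = 0.33). Ell2, an elongation factor that favours secretory immunoglobulin mRNA, was at 64.9 and 67.1 CPM for control, 232 and 227 for PU.1 cKO, 98.3 and 94.5 in the SpiB KO libraries, and 439 and 356 for DKO, with a departure of 0.24 ± 0.14 (adjusted p = 0.58). Of 32 genes for protein processing in the endoplasmic reticulum, 8 were higher in DKO and 1 had a departure, the cochaperone gene Dnajb9 (0.69, adjusted p = 0.11). Over all genes, 13.7% were higher in DKO and 1.38% had a departure. The list's median departure was 0.16. Tram1, which encodes a protein of the translocation channel, was outside that list and was called above the sum (departure 0.60). That call was lost in most fits without a library. The summed level of 12 plasma cell markers was 1217 to 1269 CPM in control, 1931 to 2148 in PU.1 cKO, 1272 to 1379 for SpiB KO and 2719 to 2742 in DKO. The part of antibody-secreting cells in these departures was not tested.

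Secreted factors showed departures both above and below the sum. Csf1, the macrophage colony-stimulating factor gene, was at 4.19 and 4.52 CPM for control, 13.2 and 20.2 for PU.1 cKO, 9.49 and 5.73 in the SpiB KO libraries, and 88.9 and 76.6 for DKO. The DKO was above all others, and the departure of 1.49 ± 0.35 (adjusted p = 0.134) kept its call in 2 of 8 fits without a library. Spp1, which encodes osteopontin, was at 1.30 and 1.39 CPM for control, 4.83 and 4.52 for PU.1 cKO, 1.61 and 1.20 in the SpiB KO libraries, and 20.7 and 19.8 for DKO (departure 2.01 ± 0.25, adjusted p = 0.0083). In the list of 17 chemokine and cytokine genes tested, 1 was called above the sum (Csf1) and 4 below it (Tnf, Lta, Ltb and Ccl4), with a median departure of -0.14. Over all genes, 1.38% were called. Tnf, Lta and Ltb are neighbours in the H2 stretch of chromosome 17, where 12.3% of the genes tested were called. Ccl4, a chemokine of activated B cells, was at 1.95 and 2.27 CPM for control, 5.78 and 7.77 for PU.1 cKO, 4.66 and 3.91 in the SpiB KO libraries, and 4.58 and 4.84 for DKO. It rose in each mutant, and the DKO was within the range of the single mutants (departure -1.54 ± 0.29, adjusted p = 0.0653).

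**Figure D2:**
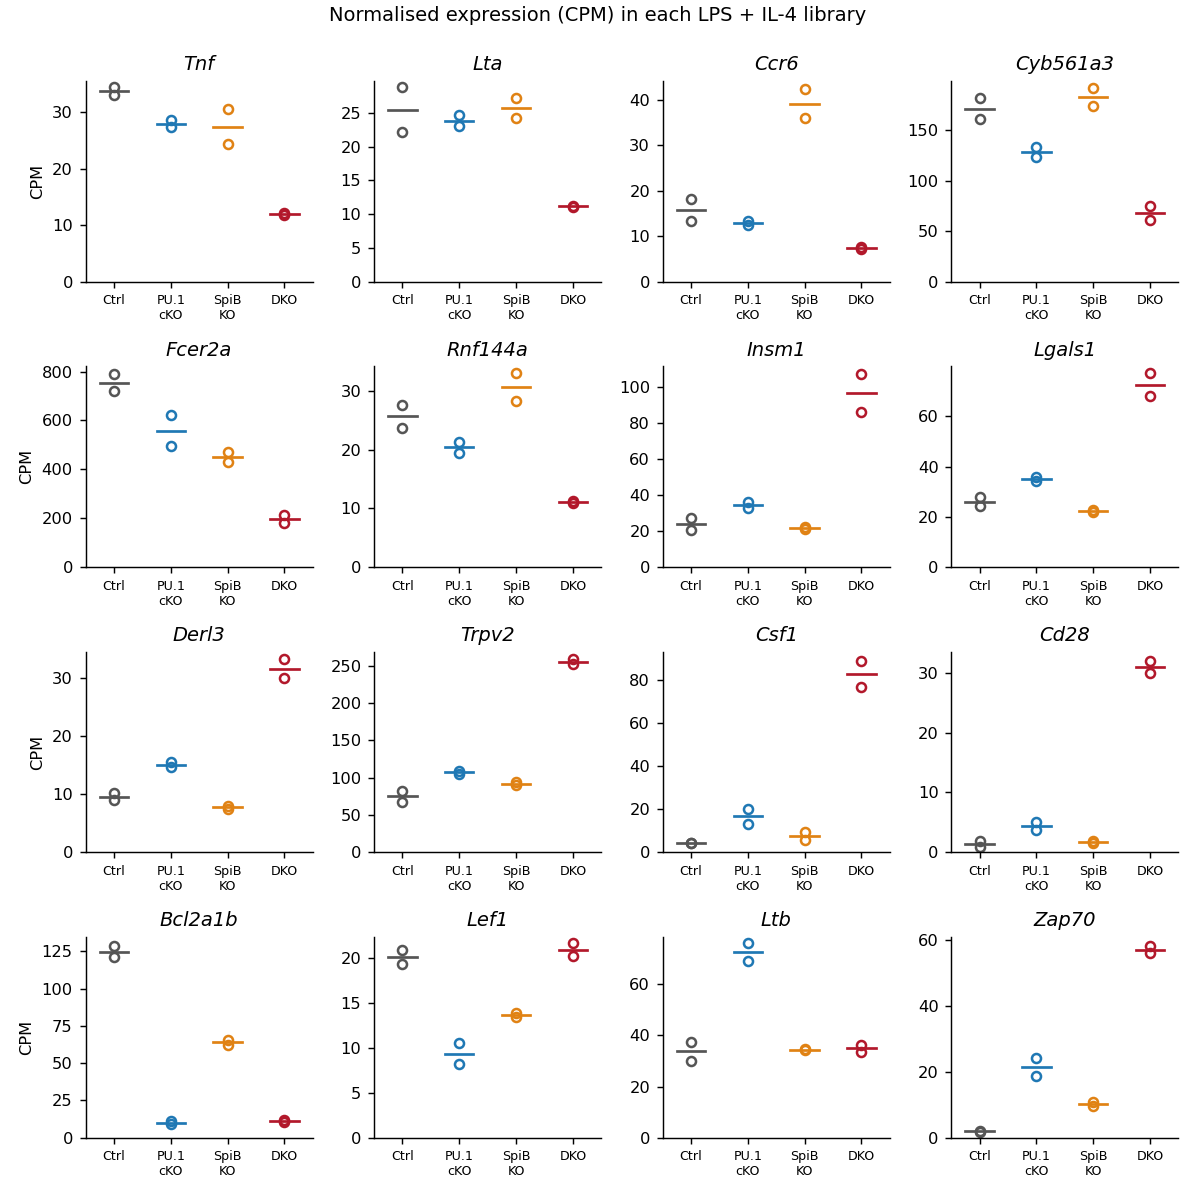
Normalised expression in CPM, on axes that start at 0, of 16 genes in the 8 libraries. Open circles are single libraries and bars are the means of 2. Tnf, Lta, Cyb561a3, Fcer2a and Rnf144a are lowest in DKO, Insm1, Lgals1, Derl3, Trpv2, Csf1 and Cd28 are highest in DKO, and Lef1 and Ltb have DKO near control.

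A further set fell or rose in PU.1 cKO and was near or past the control values in DKO. Lef1, a WNT pathway transcription factor gene, was at 19.4 and 21 CPM for control, 10.5 and 8.22 for PU.1 cKO, 13.5 and 13.9 in the SpiB KO libraries, and 20.2 and 21.7 for DKO. Control and DKO overlapped and lay above both single mutants (departure 1.72 ± 0.19, adjusted p = 0.0062). Plac8 was at 34.6 and 34.9 CPM in PU.1 cKO and at 67.3 to 114 CPM in the 6 other libraries (departure 1.45, adjusted p = 0.0112). H2-DMb1, whose product helps load peptides on MHC class II, was at 66.5 and 51.2 CPM for control, 34.7 and 32.3 for PU.1 cKO, 72.8 and 69.1 in the SpiB KO libraries, and 92.6 and 86.5 for DKO. PU.1 cKO was lowest and DKO highest, with a departure of 1.14 ± 0.17 (adjusted p = 0.0202), and the gene lies in the H2 stretch of chromosome 17. Ighg3, the constant region of IgG3, was at 8.17 and 3.83 CPM for control, 1.47 and 1.25 for PU.1 cKO, 16 and 18.5 in the SpiB KO libraries, and 13.9 and 20.8 for DKO (departure 2.08 ± 0.46, adjusted p = 0.118). It fell in PU.1 cKO and rose in SpiB KO, and the DKO and SpiB KO libraries overlapped. Ltb, which encodes lymphotoxin beta, went the other way, with 76.2 and 69.3 CPM in PU.1 cKO and 30.1 to 37.4 CPM in the 6 other libraries (departure -1.09 ± 0.17, adjusted p = 0.0231). Lef1, Plac8, H2-DMb1 and Ltb kept their call in every fit without a library, and Ighg3 in 2 of 8.

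Bcl2a1b and Bcl2a1d, near-identical copies of a gene that protects B cells from apoptosis, fell in each mutant, and no further in DKO than in PU.1 cKO. Bcl2a1b was at 121 and 129 CPM for control, 10.9 and 9.10 for PU.1 cKO, 62 and 65.9 in the SpiB KO libraries, and 10.4 and 12.1 for DKO. PU.1 cKO and DKO overlapped, while SpiB KO lay between them and control. The effects were -3.63 in PU.1 cKO, -0.97 for SpiB KO and -3.48 in DKO, and the departure was 1.12 ± 0.16 (adjusted p = 0.0189), kept in every fit without a library. Bcl2a1d was at 88.1 and 101 CPM for control, 10.9 and 8.52 for PU.1 cKO, 46.7 and 49.6 in the SpiB KO libraries, and 8.29 and 10.7 for DKO (departure 0.93 ± 0.21, adjusted p = 0.133), and kept its call in 3 of 8 such fits. Neither gene was called with all 24 libraries in the fit. Since only unique reads were counted, the division of reads between the copies is uncertain, and the pair is best read as a single result. Of 16 BCL2 family genes tested, these 2 were called, both above the sum, where 1.38% of all genes were called. The median departure of the list was 0.32.

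The promoters of these copies are shown because they hold an ETS site of the PU.1 type in the same sequence context, beside those of Ptgs1, Spp1 and Trpv2, which hold the same 8 letters but depart in different ways. Each runs 5′ to 3′ on the gene's strand from 250 bases before to 50 bases after the RefSeq start (GRCm38.p6), and capitals mark GAGGAAGT. Bcl2a1b is at chr9:89199023-89199322 (plus strand) and Bcl2a1d at chr9:88731801-88732100 (minus strand). Ptgs1 is at chr2:36230176-36230475, Spp1 at chr5:104434861-104435160 and Trpv2 at chr11:62574236-62574535, each on the plus strand.
Bcl2a1b: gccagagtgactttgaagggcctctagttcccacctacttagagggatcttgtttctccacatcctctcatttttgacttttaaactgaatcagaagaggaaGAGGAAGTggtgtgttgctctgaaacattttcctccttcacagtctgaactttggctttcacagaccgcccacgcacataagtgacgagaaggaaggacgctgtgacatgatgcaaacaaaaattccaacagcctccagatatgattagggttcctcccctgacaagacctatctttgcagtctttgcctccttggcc
Bcl2a1d: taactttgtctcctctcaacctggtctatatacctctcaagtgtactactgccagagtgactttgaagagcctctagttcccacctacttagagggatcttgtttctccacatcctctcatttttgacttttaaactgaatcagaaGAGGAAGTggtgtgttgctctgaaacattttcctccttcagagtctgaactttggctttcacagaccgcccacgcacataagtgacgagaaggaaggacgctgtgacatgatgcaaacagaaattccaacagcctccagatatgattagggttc
Ptgs1: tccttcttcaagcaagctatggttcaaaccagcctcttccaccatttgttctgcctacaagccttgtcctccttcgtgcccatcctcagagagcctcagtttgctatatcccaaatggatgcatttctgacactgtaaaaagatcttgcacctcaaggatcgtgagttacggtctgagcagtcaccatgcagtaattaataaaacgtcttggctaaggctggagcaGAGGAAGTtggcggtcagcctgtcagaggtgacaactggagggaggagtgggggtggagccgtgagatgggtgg
Spp1: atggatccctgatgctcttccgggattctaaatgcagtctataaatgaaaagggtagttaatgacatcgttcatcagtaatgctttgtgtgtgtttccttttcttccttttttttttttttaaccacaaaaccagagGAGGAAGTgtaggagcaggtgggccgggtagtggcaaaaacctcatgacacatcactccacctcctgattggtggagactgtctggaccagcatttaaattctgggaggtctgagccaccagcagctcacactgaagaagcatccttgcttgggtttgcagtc
Trpv2: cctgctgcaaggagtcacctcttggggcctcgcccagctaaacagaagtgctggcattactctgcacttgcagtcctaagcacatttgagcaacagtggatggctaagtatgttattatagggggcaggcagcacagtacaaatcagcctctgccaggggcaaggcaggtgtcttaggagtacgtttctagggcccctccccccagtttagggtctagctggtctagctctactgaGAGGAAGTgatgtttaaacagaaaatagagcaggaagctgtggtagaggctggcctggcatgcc
The first base of the match was at -148 in Bcl2a1b, -104 in Bcl2a1d, -24 in Ptgs1, -113 in Spp1 and -14 in Trpv2, relative to the start. GAGGAAGT occurred on either strand in 3.28% of 27025 RefSeq promoters of this length, and GGAANNGAA, the letters of an ETS-IRF composite element, in 8.25%. Promoters were matched for 123 of the 172 called genes, which is under 80%, so a comparison of these shares over the called genes is void. A match is a description of the letters and not a bound site.

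Other genes that fell in PU.1 cKO also stopped short of the summed fall. Cfp, which encodes the complement regulator properdin, was at 116 and 110 CPM for control, 19.6 and 15.9 for PU.1 cKO, 55.5 and 55.9 in the SpiB KO libraries, and 14.6 and 15.7 for DKO. It fell in each mutant, and PU.1 cKO and DKO lay close together without overlap, with a departure of 0.79 ± 0.15 (adjusted p = 0.0776). Csf2rb, the shared beta chain of the IL-3, IL-5 and GM-CSF receptors, was at 37.1 and 34.4 CPM for control, 8.11 and 6.91 for PU.1 cKO, 47.3 and 51.7 in the SpiB KO libraries, and 21.5 and 32.9 for DKO. Only PU.1 cKO was called, and the DKO was partly back (departure 1.38 ± 0.25, adjusted p = 0.0593). The gelsolin gene Gsn (departure 1.69), the RNA-binding protein gene Igf2bp3 (1.66) and the syndecan gene Sdc3 (1.36) also ended above the summed fall. Of these, Igf2bp3 and Sdc3 did not pass at an adjusted p under 0.05. Nfkbiz, an atypical IκB induced by TLR signals, was at 99.7 and 83.5 CPM for control, 42.3 and 33.1 for PU.1 cKO, 77.0 and 67.6 in the SpiB KO libraries, and 57.6 and 49.7 for DKO (departure 0.84 ± 0.20, adjusted p = 0.135). It was the single call among 24 LPS and TLR sensing genes, where 1.38% of all genes were called, and the list's median departure was 0.06. Peli1, a ubiquitin ligase of the same pathway outside that list, was at 50.3 and 48.0 CPM in PU.1 cKO and 67.6 and 74.1 in DKO, against 91.1 and 92.5 in control (departure 0.88 ± 0.11, adjusted p = 0.0083).

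Genes that stopped short of a summed rise numbered 51. Those named here, several of them better known from T cells, were chosen after their values were seen and do not make up a list. Zap70, a kinase of antigen receptor signalling, was at 2.03 and 1.82 CPM for control, 24.2 and 18.7 for PU.1 cKO, 9.62 and 10.8 in the SpiB KO libraries, and 56.1 and 58.1 for DKO. It rose in each mutant, most in DKO, yet the rise of 4.91 in DKO was below the summed rises of 3.5 and 2.42 (departure -1.01 ± 0.21, adjusted p = 0.0898). Sh2d2a, an adaptor gene, was at 30.1 and 36.1 CPM for control, 81.4 and 84.3 for PU.1 cKO, 67.8 and 70.5 in the SpiB KO libraries, and 90.7 and 98.8 for DKO (departure -0.86 ± 0.14, adjusted p = 0.0323). Its single mutants covered nearly the whole distance to the DKO, as did those of the inhibitory receptor gene Pdcd1 (departure -1.0). In the adaptor gene Grap2 the single mutants, at 38.5 to 45.5 CPM, lay above the DKO at 37.2 and 35 CPM (departure -0.89). Tbx21, which encodes T-bet, was at 0.13 and 0.288 CPM for control, 3.91 and 5.08 for PU.1 cKO, 1.97 and 2.00 in the SpiB KO libraries, and 8.34 and 9.67 for DKO (departure -2.04 ± 0.40, adjusted p = 0.0776). This departure rests on control counts near 0, and its call was lost in most fits without a library. Epcam, an adhesion molecule gene, was at 37.6 and 43.4 CPM in PU.1 cKO and at 38.6 and 40.9 CPM in DKO, so these overlapped, against 4.67 and 3.98 in control (departure -1.85).

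The summed level of 20 T cell markers was 55.9 to 67.5 CPM in control, 152 to 153 in PU.1 cKO, 105 to 110 for SpiB KO and 271 to 287 in DKO. Of these, 11 were under 1 CPM in every library, among them Cd3e, Cd4 and Trbc2, and Thy1, Lck, Zap70, Cd28 and Lat were among those that rose in DKO. Over the 9 T cell markers tested the median departure was 0.86, with 5 above 0 and 4 below, against 0.00 over all genes. Cd28 (2.34) was called above the sum and Zap70 (-1.01) below it, where 1.38% of all genes were called. Lat (1.76), Thy1 (-0.05) and Lck (-0.35) were not called. With the replicate block 3 of the 9 were called above and 1 below, where 4.35% of all genes were called. NK cell markers summed to 1.13 to 1.25 CPM in control, 4.49 to 8.07 in PU.1 cKO, 3.41 to 3.60 for SpiB KO and 13.8 to 15.5 CPM in DKO. Of these 10 markers, 8 were under 1 CPM in every library. The sum in DKO was mostly Prf1 (9.51 and 11.7 CPM) and Eomes (3.36 and 3.63 CPM). Macrophage markers summed to 75.9 to 88.2 CPM in control, 25.8 to 27.9 in PU.1 cKO, 47.8 to 52.6 for SpiB KO and 18 to 19.0 in DKO. Mpeg1 was the largest part in each library, at 60.9 to 65.2 CPM in control and 8.09 to 10.2 CPM in DKO, and Emr1 reached 17.3 and 19.8 CPM in SpiB KO. The part of these marker levels in the departures was not tested.

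Among immunoglobulin constant regions, Ighg3 was above the sum as described, and Ighg1 was below it. Ighg1, the IgG1 constant region to which IL-4 directs switching, was at 129 and 152 CPM for control, 288 and 294 for PU.1 cKO, 251 and 221 in the SpiB KO libraries, and 332 and 288 for DKO. It rose in each mutant, and the DKO libraries overlapped those of PU.1 cKO (departure -0.65 ± 0.15, adjusted p = 0.136, kept in 1 of 8 fits without a library). In the list of 19 IL-4 and STAT6 response genes, Fcer2a and Ighg1 were called below the sum and none above, and the median departure was -0.10. Over all genes, 0.739% were called below the sum. Ighe, the IgE constant region, was called with the replicate block only (departure 0.84, adjusted p = 0.0607 with the block and 0.34 without). The variable region genes Ighv1-64 (departure 0.62), Ighv1-55 (0.69) and Ighv1-58 (0.96), chosen after their values were seen, were called above the sum and kept their call in at most 2 of 8 fits without a library, and counts of such related segments are uncertain. Of 16 genes of the class switch machinery, none was called (median -0.10), where 1.38% of all genes were.

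The largest departures by size came from genes that were far higher in PU.1 cKO than in the other genotypes. H2-Ea-ps, the MHC class II E alpha locus on chromosome 17, was at 0.259 and 0.648 CPM for control, 1464 and 1144 for PU.1 cKO, 0.0492 and 0.133 in the SpiB KO libraries, and 0.0249 and 0.0636 for DKO. The class I gene H2-Q2 was at 57.8 and 57.8 CPM in PU.1 cKO and at 2.00 to 2.81 CPM in the other 6 libraries. H2-K2 was at 85.2 and 78.9 CPM in PU.1 cKO and at 2.32 to 4.79 CPM elsewhere, and H2-Q10 at 86.1 and 73.8 against 1.91 to 4.24. In each, both PU.1 cKO libraries stood apart from all others, and the DKO, which lacks PU.1 as well, was near control and far from PU.1 cKO. From 28 to 38 Mb of chromosome 17, 25 of 203 genes tested had a departure (12.3%), 22 below the sum and 3 above it, and 16 of the 25 were called in PU.1 cKO alone. Elsewhere 142 of 11968 genes with a position were called (1.19%). C57BL/6 mice carry an H2 haplotype that does not transcribe the E alpha gene, so the level of H2-Ea-ps in PU.1 cKO goes against the strain label, and the part of the H2 haplotype in these departures was not tested. The class I members share sequence, so their individual counts are uncertain. Tnf, Lta, Ltb, Btnl2, Fgd2 and H2-DMb1 are among the 25.

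**Figure D3:**
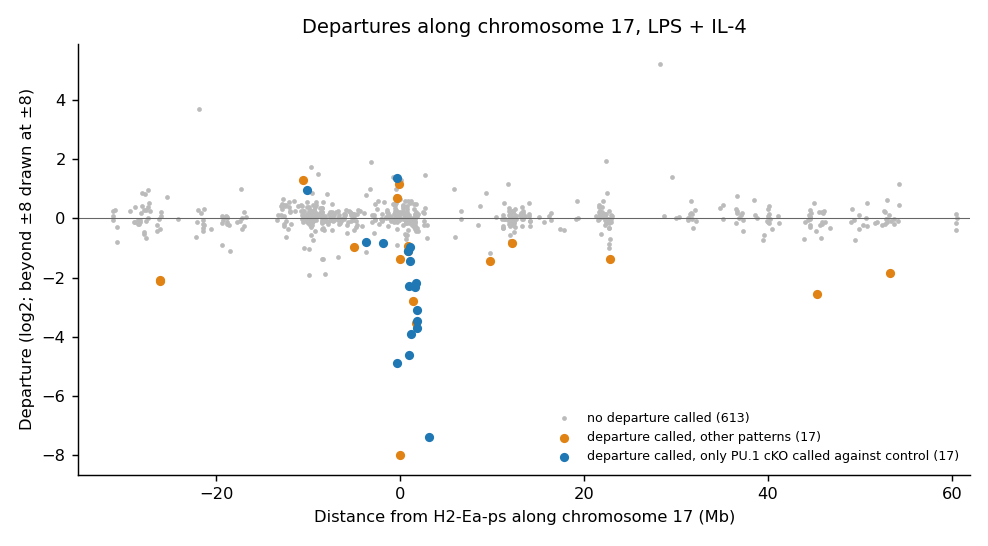
Departure in log2 of the 647 genes tested on chromosome 17 against their distance in Mb from H2-Ea-ps, with values beyond ±8 drawn at ±8. Blue marks the 17 called genes that were called against control in PU.1 cKO alone, orange the other called genes and grey the rest. The 34 called genes gather on both sides of H2-Ea-ps and lie mostly below 0.

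Of all 49 genes with a departure and a call in PU.1 cKO alone, 17 on chromosome 17 among them, 33 were higher and 16 lower than control in that genotype. The following lie on other chromosomes. Gdpd3, a phosphodiesterase family gene, was at 8.54 and 7.88 CPM in PU.1 cKO and at 0.0900 to 0.274 CPM elsewhere. Tsku was at 10.5 and 9.55 CPM in PU.1 cKO and at 0.799 to 1.27 CPM elsewhere (departure -3.0 ± 0.36). Within 1 Mb of the called antiviral Trim genes on chromosome 7, 4 of 14 genes tested were called (28.6%), in a window drawn around these 4. A call in PU.1 cKO alone held for 2 of these 4, Trim12a and Trim5, and not for Trim30d. There, Trim30d was at 35.7 and 30.1 CPM for control, 4.97 and 6.36 for PU.1 cKO, 23.9 and 21.2 in the SpiB KO libraries, and 14.8 and 12.2 for DKO (departure 1.81 ± 0.23, adjusted p = 0.0083). Trim12a was at 6.40 and 6.44 CPM in PU.1 cKO and at 19.95 to 29.0 CPM in the other libraries (departure 1.43 ± 0.17). Reads of these Trim paralogs may be shared, so the values are uncertain. Lars2, a mitochondrial tRNA synthetase gene, rests on single libraries, with 862 and 3463 CPM in PU.1 cKO and 688 and 1669 in SpiB KO. Its departure of -3.32 (adjusted p = 0.145) was called in 1 of the 8 fits without a library, and its 2 highest libraries were also the 2 highest in Rn45s.

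The targeted loci were also examined, with the share of 1.38% over all genes as the background. Within 5 Mb of Spi1 only Mybpc3 was called among 45 genes tested, with a departure of -2.10 ± 0.29 that rests on control counts near 0. Within 5 Mb of Spib, Atf5, Ptov1 and Emp3 were called among 107. Atf5, a stress response factor gene, was at 26.2 to 34.2 CPM in the 6 other libraries and at 49.1 and 47.9 CPM in DKO (departure 0.62 ± 0.13, adjusted p = 0.103). Within 5 Mb of Fcer2a, the gene itself was the only call among 26.

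Most interferon-stimulated genes fell in each mutant. Of 24 tested, 19 were lower in PU.1 cKO, 16 were lower in SpiB KO and 21 were lower in DKO. Over all genes the shares called lower were 3.85%, 0.94% and 6.52%. Gbp3 alone had a departure, below the sum, where 1.38% of all genes had a departure. The median effects of the 24 were -1.49 in PU.1 cKO, -1.20 for SpiB KO and -2.55 in DKO. The median of their summed single effects was -2.60, and their median departure was 0.17. Rtp4 was at 19.2 and 17.8 CPM for control, 3.97 and 4.77 for PU.1 cKO, 6.70 and 6.26 in the SpiB KO libraries, and 1.57 and 1.5 for DKO. Each genotype was separate from the others, and the departure was 0.01 ± 0.28. Ifit1, which binds viral RNA, fell by 1.97, 1.23 and 3.15 on the log2 scale in PU.1 cKO, SpiB KO and DKO, with a departure of 0.04. With the replicate block, 3 of the 24 were called above the sum and 1 below, where 4.35% of all genes were called.

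None of 28 BCR signalling genes was called (median 0.08), where 1.38% of all genes were, and Btk and Blnk had departures of -0.23 each. None of 19 genes of the TNF receptor family and NF-κB was called, although all 19 departures were below 0, with a median of -0.18, where 6197 of all 12445 genes were below 0. Cd40 was at 187 and 208 CPM for control, 93.7 and 79.0 for PU.1 cKO, 149 and 145 in the SpiB KO libraries, and 41.1 and 48.6 for DKO. Its genotypes were separate, and its departure of -0.52 ± 0.16 did not pass (adjusted p = 0.27). Tnfrsf13c, the BAFF receptor gene, was at 206 and 231 CPM in DKO and at 299 to 452 CPM in the other libraries, with a departure of -0.53 ± 0.13 (adjusted p = 0.16) under the 1.5-fold threshold. Of the other receptors, Tlr4 (-0.40), Tlr9 (-0.42) and Il4ra (0.33) did not pass.

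Among 20 regulators of B cell identity none was called, where 1.38% of all genes were, and the median departure was 0.06. Bcl6, the germinal centre repressor gene, fell in PU.1 cKO (-1.07) and was not called in DKO (0.51). Its departure of 1.25 ± 0.39 was called with the replicate block (adjusted p = 0.0402) and not without it (adjusted p = 0.27). The departures of Pax5 (-0.05), Bach2 (-0.08), Irf4 (-0.12), Irf8 (0.05), Tcf3 (0.20), Tcf4 (0.11) and Pou2af1 (0.24) did not pass. Il5ra (-0.12), Cebpb (-0.03) and Rasgrp3 (0.09) likewise gave values near 0.

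The other lists held little. MHC class II presentation had 1 call above the sum (H2-DMb1) and 1 below (H2-Ea-ps) among 15 genes, and homing receptors and integrins had 1 below (Ccr6) among 21. No gene was called among 19 Fc and inhibitory receptors, 19 genes of the NADPH oxidase and lysosome, 15 ETS factors, 22 genes of sterol synthesis, 19 of glycolysis and 31 of the cell cycle, where 1.38% of all genes were. With the replicate block, which called 4.35% of all genes, 1 Fc and inhibitory receptor was called below the sum (Siglecg) and 1 ETS factor above it (Etv5), while the MHC class II list had 3 above and 2 below and the homing list 2 below. The medians of these 6 lists ran from -0.29 for glycolysis, where 18 of 19 departures were below 0, to 0.19 for the Fc and inhibitory receptors. The lists were chosen with results known, and these counts and medians are descriptions.

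**Figure D4:**
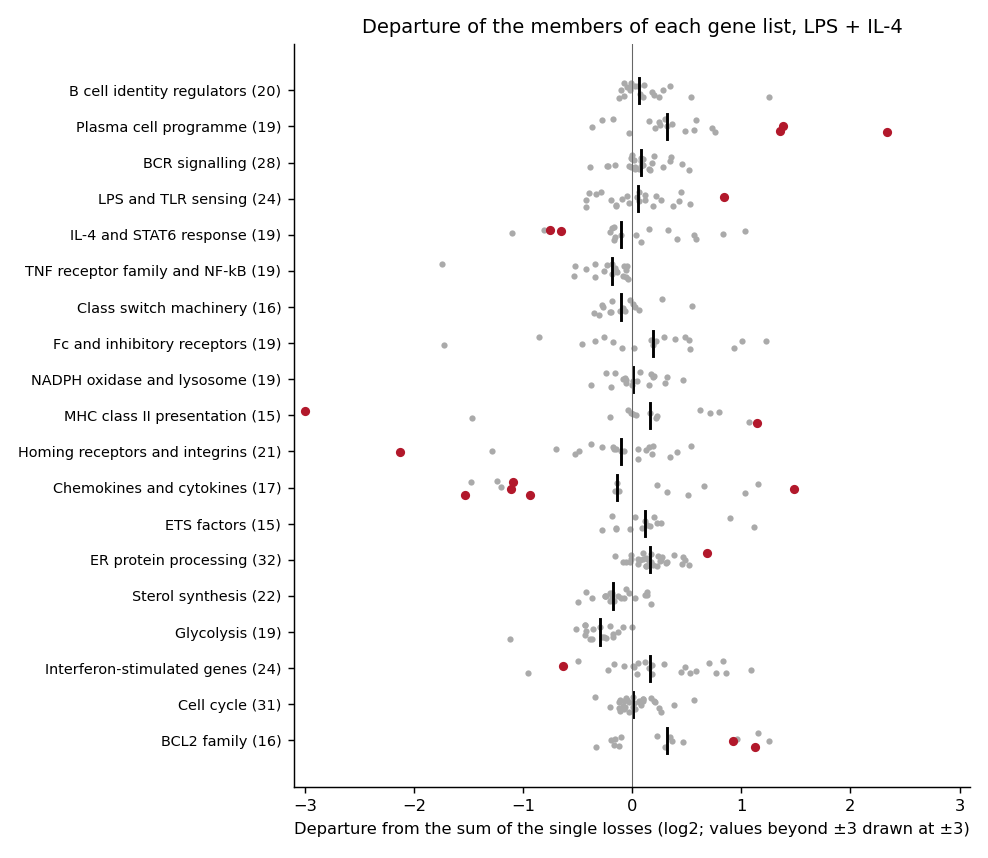
Departure in log2 of every tested member of 19 gene lists, with the number tested after each name and values beyond ±3 drawn at ±3. Red points are called genes, grey points the others and black bars the medians. The medians lie between -0.29 and 0.32, and the called points fall in 9 of the 19 lists.

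The same contrast was computed in the 8 CD40L + IL-4 libraries of the same genotypes, in which 149 of 12721 genes were called (1.17%). Of the 171 called genes also tested there, 131 (76.6%) had a departure of the same sign, against 6233 of 12162 (51.2%) over all genes tested in both, and 41 were called there with that sign. The share was 79.2% of 48 genes called in PU.1 cKO alone, 17 of them called in both cultures, and 66.7% of 39 genes called in DKO alone, 5 of them called in both. Outside the H2 stretch of chromosome 17, 110 of 146 (75.3%) had the same sign and 30 were called in both. The cultures share the mouse strain, the alleles and the design, though not the libraries. Ccr6 was at 122 and 111 CPM for control, 37.0 and 29.7 for PU.1 cKO, 155 and 104 in the SpiB KO libraries, and 12.6 and 14.1 for DKO with CD40L + IL-4, where the departure was -1.46. Rnf144a was at 13.4 and 10.7 CPM in DKO and at 46.3 to 66.4 CPM in the other CD40L + IL-4 libraries. H2-Ea-ps was again high in PU.1 cKO alone, at 1664 and 2765 CPM against 3.34 CPM or less elsewhere.

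A single fit of the 16 libraries tested whether the departure differed between the cultures, and 19 of 13075 genes were called (0.145%), 5 of them among the 172. The Tnf departure was -0.94 with LPS + IL-4 and 2.32 with CD40L + IL-4, where Tnf was at 6.06 and 7.86 CPM for control, 1.2 and 1.4 for PU.1 cKO, 2.96 and 4.07 in the SpiB KO libraries, and 2.05 and 4.67 for DKO. The difference was -3.25 ± 0.52 (adjusted p = 0.112), while the Tnf departure in CD40L + IL-4 was not itself called (adjusted p = 0.160). Fcer2a had -0.75 and 0.82, with 1023 and 1065 CPM for control, 286 and 298 for PU.1 cKO, 637 and 594 in the SpiB KO libraries, and 258 and 350 for DKO after CD40L + IL-4. Its DKO was thus at the level of PU.1 cKO in that culture and below both single mutants in LPS + IL-4 (difference -1.58 ± 0.30, adjusted p = 0.112). Bcl2a1d departed above the sum in both cultures, by 0.93 and 3.99, and Fgd2, a guanine nucleotide exchange factor gene for CDC42, below the sum in both, by -0.96 and -3.40. Leaving out 1 library at a time gave 0 to 2 calls. Only LPS + IL-4 libraries were left out in those fits. At an adjusted p under 0.05 edgeR called 0, with 1058 genes at an unadjusted p under 0.05, while DESeq2 at 0.15 called 186.

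**Figure D5:**
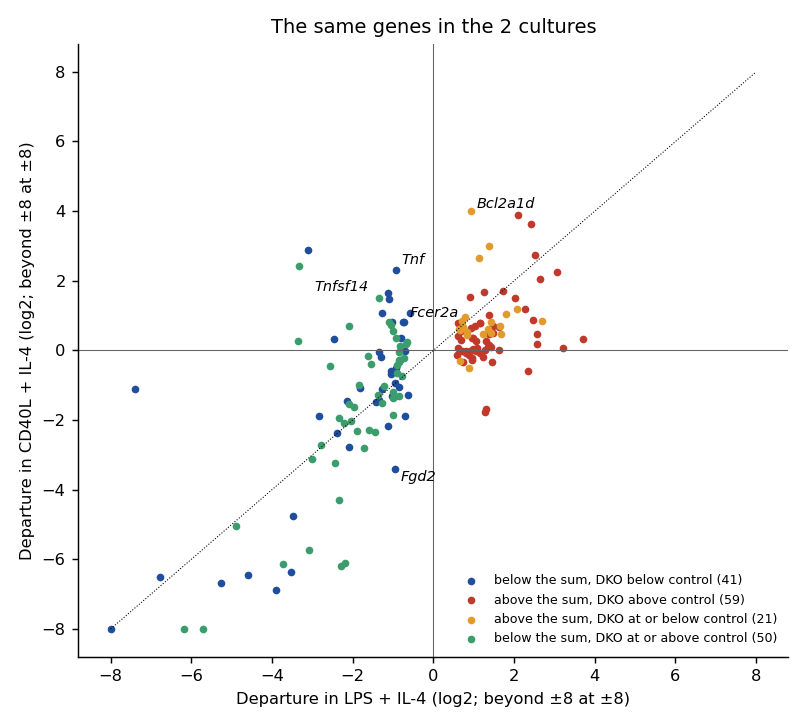
Departure in LPS + IL-4 (horizontal) against that in CD40L + IL-4 (vertical), in log2 with values beyond ±8 drawn at ±8, for the 171 called genes tested in both. Colours are the 4 patterns and the dotted line marks equal departures. Most points, 131 of 171, share a sign, and Tnf, Tnfsf14 and Fcer2a have opposite signs.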

How the data were processed

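RNA-seq counts were analysed for the 8 LPS + IL-4 libraries, with the 16 others used only where named. The authors aligned reads with Subread to GRCm38 (mm10), kept unique reads and counted exons of RefSeq genes with featureCounts, and the deposited counts are raw whole numbers for 27179 genes. The deposited log2 RPKM values, quantile normalised by the authors, served as 1 alternative filter only. The authors' own comparison columns were not used. Entries without a symbol (517, 0.114% to 0.273% of the counts) were kept as deposited.

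Genes with at least 0.5 CPM in 2 libraries were fitted with edgeR 4.0.16 (TMM, quasi-likelihood) in R 4.3.3, with limma 3.58.1 and DESeq2 1.42.0 as alternatives. SE is the log2 value over the root of F. The fit was tested on simulated data. The main fit had terms for genotype only and did not pair the samples. Same-numbered libraries deviated together (6 of 6 correlations over 0.1, 0.386 to 0.514). The fit with the replicate number as a block, which pairs them, was an alternative. Naming followed a rule: the targeted genes and Mybpc3, 7 genes per pattern with the largest departure and at least 5 CPM, up to 4 called genes per list, genes the study discusses, and called genes within 5 Mb of targeted loci. Further genes were chosen after their values were seen, and some genes under the rule are not reported here. The patterns, gene lists and rule were chosen with earlier results of these data known. Figures were drawn with matplotlib 3.10.9.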

Additional observations from a re-analysis of the deposited data

Results flagged for a closer look

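In 5 called genes, a test of the difference itself found that the departure in LPS + IL-4 was not that in CD40L + IL-4 (edgeR, 16 libraries, log2, LPS + IL-4 minus CD40L + IL-4, adjusted p from 0.0818 to 0.134 over all 19 genes called). For Fgd2 the difference was 2.43, from a departure of -0.96 in LPS + IL-4 and -3.40 in CD40L + IL-4. For Tnf it was -3.25, from -0.94 and 2.32. For Tnfsf14, a TNF family ligand gene that was at 1.58 to 3.69 CPM in the LPS + IL-4 libraries, it was -2.86, from -1.36 and 1.5. For Fcer2a it was -1.58, from -0.75 and 0.82. For Bcl2a1d it was -3.09, from 0.93 and 3.99. None of these differences passed at an adjusted p under 0.05. By the same edgeR test, the CD40L + IL-4 departures of Tnf, Tnfsf14 and Fcer2a were not called alone (adjusted p = 0.160, 0.397 and 0.263).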

How the results depend on the processing

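The 172 departures became 541 with the replicate block (309 above the sum, 232 below), 302 with DESeq2 (167 above), 548 without a filter (287 above, 261 below), 377 with a term for the 2 runs of numbers in the deposited library names (212 and 165), 84 with all 24 libraries in the fit (33 and 51) and 58 at an adjusted p under 0.05 (22 and 36). A filter of 5 CPM left 53 above the sum. Leaving out 1 library gave 54 to 520 calls in all, 23 to 329 above and 31 to 191 below. Without PU.1 cKO replicate 2 there were 54, without SpiB KO replicate 1 58, without DKO replicate 1 78, without SpiB KO replicate 2 or DKO replicate 2 88 each, and without control replicate 2 520. The lone sample left in such a group was assumed to vary like the other groups. SpiB KO calls went from 397 to 627 with the block, 653 without a filter and 228 at 0.05, and to between 187 and 816 without a library. Without a library, PU.1 cKO calls were 936 to 1280 and DKO calls 2014 to 2974, and the other alternatives gave 1005 to 1517 and 2164 to 2794. The difference between cultures went from 19 calls to 350 with the block, 186 with DESeq2, 484 without a filter and 0 at 0.05, and to between 0 and 2 without a library. Of 47 named called genes all kept their call under the replicate block, which added 1 other named gene, Bcl6, while 39 kept it under voom with quantile normalisation, 26 at 0.05 and 29 with all 24 libraries. Under voom 189 genes were called, 153 of them among the 172. Leaving out chromosome 17 from 28 to 38 Mb, chosen after seeing the data, left 147 calls. No direction turned. With 2 libraries a genotype, a departure sums the error of 4 means, and small departures were not detectable at this replication.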

Other observations

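Besides the 5 genes above, 14 genes with no departure called in LPS + IL-4 had a called difference between the cultures. None of these differences passed at an adjusted p under 0.05 by the same edgeR test, and nearly all calls were lost in fits without a library. Cd69, an early activation receptor gene, had departures of -0.49 in LPS + IL-4 and 1.07 in CD40L + IL-4. Ly75, an endocytic receptor gene, had -0.14 and 1.30, and Lilrb4, an inhibitory receptor gene, had 1.01 and 4.53. The transcription factor genes Klf3 (0.52 and -1.22) and Lmo2 (0.42 and -0.94) differed in the other direction. Pml, which encodes the scaffold of nuclear bodies, had -0.18 and -1.67, and Mreg had 0.24 and 1.83. These genes were chosen after their values were seen.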
